A study of Mus musculus with 5 samples.

Results

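The locus studied is a window of 50 kb on mouse chromosome 17, from 34.31 to 34.36 Mb of build mm9, that holds Psmb9, Tap1, Psmb8 and Tap2, genes of antigen processing. It was selected on its H3K4me3 peak lists, in which strong peaks stood in control tumours and not in Olig2cKO tumours. Every peak of the 5 deposited lists that overlapped the window by at least 1 bp was taken, which gave 18 of 258727 peaks. Of these, 4 of 69365 were H3K27ac peaks of Olig2cKO tumours and 4 of 56600 were H3K27ac peaks of control tumours. The H3K4me3 lists gave 2 of 48885 peaks in Olig2cKO tumours and 4 of 44676 in control tumours, and the Olig2 list of control tumours gave 4 of 39201. The H3K4me3 difference between genotypes was part of the choice, so it is described here and supports nothing.

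Chromatin immunoprecipitation followed by sequencing (ChIP-seq) mapped the transcription factor Olig2 and 2 histone marks in gliomas that PDGFB virus had induced in mouse brain, 25 days after the injection. Olig2cKO tumours carried floxed Olig2 alleles (Olig2f/f), which control tumours did not, and both carried the floxed tumour suppressor alleles of the control genotype, P53f/f among them, on a mixed C57Bl/6;129Sv;CD-1 background. H3K27ac, acetylated lysine of histone H3 at active promoters and enhancers, and H3K4me3, trimethylated lysine found mainly at promoters, were mapped in each genotype, and Olig2 in control tumours. Each list came from 1 library, so a genotype comparison sets 1 library beside another, cannot be checked over replicates, and was not tested. The Cre source, the number of tumours pooled and the depth of each library are not given in the sources used here, and loss of Olig2 in Olig2cKO tumours was not checked. Tumour tissue holds host cells beside tumour cells, and a mark carried by fewer cells cannot be told apart from a weaker mark per cell.

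Psmb8 and Psmb9 encode catalytic subunits of the immunoproteasome, the form of the proteasome that interferon induces and that cuts proteins into peptides suited to MHC class I molecules. Tap1 and Tap2 form the transporter that carries those peptides into the endoplasmic reticulum, where class I molecules are loaded. All 4 genes lie inside the MHC, are interferon-inducible, and are known to be low in resting brain and to rise in glia, microglia and infiltrating immune cells during inflammation. Psmb10, the further inducible proteasome subunit, B2m, the class I light chain, and Tapbp, which links the transporter to class I molecules, complete this route. No values are given for them, since no mm9 gene positions were used.

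In the RefSeq table of build GRCm38.p6 the 4 genes follow each other along chromosome 17 in the order Psmb9, Tap1, Psmb8, Tap2, with no other listed gene between them. H2-DMb1, a class II peptide-loading chain, precedes them, and H2-Ob, a class II accessory chain, follows. Psmb9 is read from the minus strand and Tap1 from the plus strand, so their start sites face away from each other across a short stretch. RefSeq promoter sequences were found for 3 of the 4 genes (Psmb9, Tap1 and Psmb8), and the stretches before their start sites are shown because H3K4me3 is a promoter mark and both stretches belong to genes of the window. Positions of the sequences are on GRCm38.p6 and cannot be set beside the mm9 positions of the peaks, so no peak is assigned to a gene. The 225 bases between the start sites of Psmb9 and Tap1 are chr17:34187331-34187555, and the 250 bases before the start site of Psmb8 are chr17:34197945-34198194, both on the plus strand of GRCm38.p6. Capitals mark matches to the motifs named after the sequences, of which the stretch before Psmb8 had 0.
Psmb9 to Tap1: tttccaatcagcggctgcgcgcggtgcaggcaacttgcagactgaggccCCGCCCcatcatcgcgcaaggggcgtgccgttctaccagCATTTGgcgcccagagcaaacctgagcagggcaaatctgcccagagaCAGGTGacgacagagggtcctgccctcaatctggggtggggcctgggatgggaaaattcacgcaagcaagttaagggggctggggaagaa
Upstream of Psmb8: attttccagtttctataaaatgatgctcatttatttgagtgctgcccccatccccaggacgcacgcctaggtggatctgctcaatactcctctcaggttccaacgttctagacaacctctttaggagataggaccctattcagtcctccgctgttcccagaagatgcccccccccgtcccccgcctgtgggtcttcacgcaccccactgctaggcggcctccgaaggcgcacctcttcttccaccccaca

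The stretch shared by Psmb9 and Tap1 was 61.3% G and C and held 12 CpG dinucleotides, and that of Psmb8 was 55.6% G and C with 10 CpG dinucleotides. Over the 32851 upstream sequences of 250 bases in the table, the medians were 52.4% and 6. Motifs were searched on both strands. The SP1 box GGGCGG matched 1 time between Psmb9 and Tap1, as CCGCCC, and 31.9% of upstream sequences of the same length held a match. The general E-box CANNTG, the core that Olig2 and other basic helix-loop-helix factors bind, matched 2 times there, as CATTTG and CAGGTG. Of sequences of that length 62.5% held a match. Before Psmb8 the SP1 box and CANNTG had 0 matches, where 32.7% and 66.2% of sequences of 250 bases held a match. The E-box CAGCTG, contained in CANNTG, the interferon-stimulated response element (ISRE) core and the NF-kB motif had 0 matches in either stretch. The shares of sequences of 225 and of 250 bases with a match were 12.04% and 13.0% for CAGCTG, 2.62% and 2.98% for the ISRE core, and 3.54% and 3.90% for the NF-kB motif. A match is a description of the letters only, and no match says nothing about a factor outside these windows.

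The 18 peaks fell into 4 sites, numbered from the low to the high coordinate, and each site held 1 Olig2 peak and 1 H3K27ac peak of each genotype. Sites 1 and 2 carried H3K4me3 in the control list and none in the Olig2cKO list. Site 3 carried H3K4me3 in both lists, and site 4 in the Olig2cKO list alone. Sites 1, 2, 3 and 4 spanned 7883, 6243, 3820 and 4451 bp. Gaps of 570, 3650 and 7771 bp separated neighbouring sites. The score of a peak is the authors' own and serves to order peaks inside its list. It is not scaled between libraries.

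**Figure D1:**
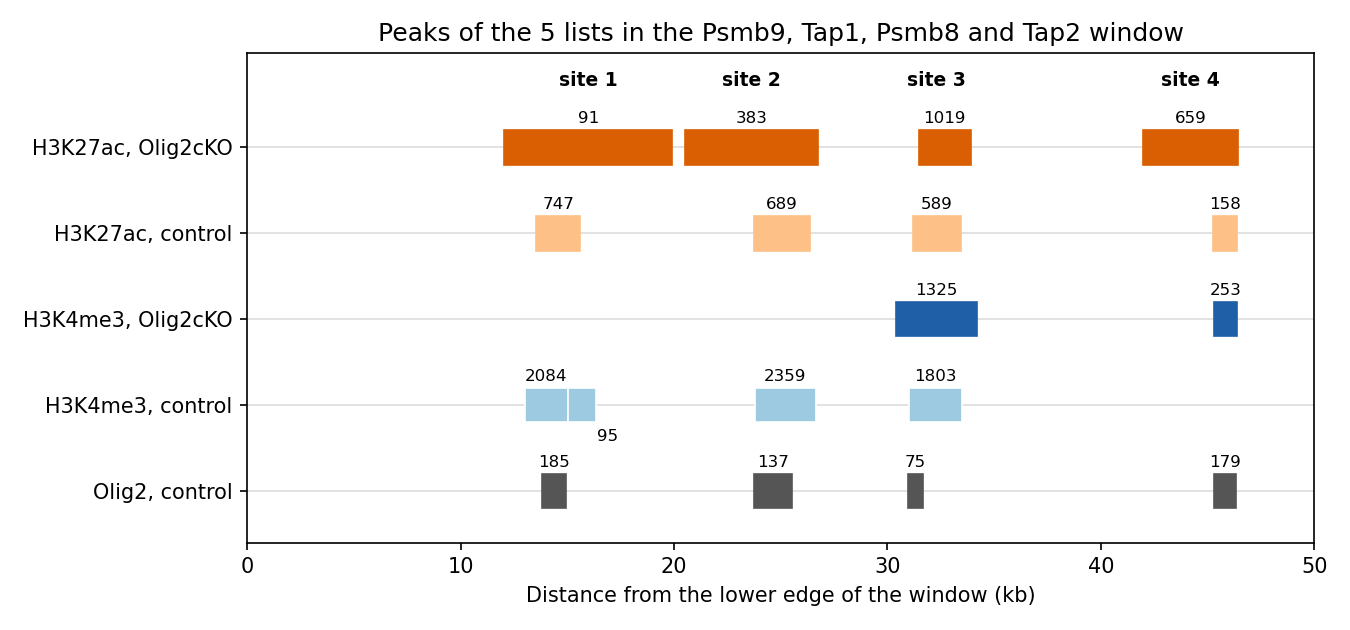
Peaks of the 5 lists in the window, as bars against the distance in kb from its lower edge, with the authors' score rounded above or below each bar. All 4 sites carry H3K27ac in both genotypes, while H3K4me3 at sites 1 and 2 is listed in control tumours alone and at site 4 in Olig2cKO tumours alone.

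At site 1 the Olig2cKO H3K4me3 list held no peak, and the control list held 2 peaks that lay 20 bp apart. The stronger of the control peaks, chr17:34323021-34325016, was 1996 bp wide with a score of 2083.55, and 7.92% of the control list scored higher. The weaker, chr17:34325037-34326365, was 1329 bp wide with a score of 94.56, and 82.9% of the list scored higher. The nearest Olig2cKO H3K4me3 peaks to the stronger one lay 31538 bp below it and 15369 bp above it. From the weaker one the nearest lay 14020 bp above. Site 1 thus had a promoter-type mark of the top score decile in the control library and no listed partner in the Olig2cKO library.

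At site 2 the Olig2cKO H3K4me3 list again held no peak. The control peak, chr17:34333771-34336640, was 2870 bp wide with a score of 2359.25, and 5.4% of the control list scored higher. The nearest Olig2cKO H3K4me3 peak lay 3745 bp above it and belonged to site 3. Of the 4 control peaks of the window, 3 were therefore control-only, against 8.13% of the whole control list and 7.99% of its 1889 peaks on chromosome 17. In the top score decile of the control list, 6 of 4467 peaks (0.134%, 95% interval 0.0493 to 0.292) were control-only, and 2 of these 6 lay in this window. The intervals cover counting error only. Since the window was chosen for these peaks, nothing is read from those shares.

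At site 3 the 2 genotypes shared an H3K4me3 peak. It ran over chr17:34340386-34344205 in Olig2cKO tumours, 3820 bp with a score of 1325.34, and over chr17:34341001-34343488 in control tumours, 2488 bp with a score of 1803.15. In the Olig2cKO list 16.3% of peaks scored higher, and in the control list 11.2%. The Olig2cKO peak contained the whole control peak and extended 615 bp below and 717 bp above it, a width 1.54 times that of the control peak. Over 35250 H3K4me3 pairs with 1 partner on each side the median ratio was 1.12, and 12.9% of pairs had a ratio at least as high. The peak at site 3 was thus wider in the Olig2cKO library by more than the middle of all pairs.

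At site 4 the Olig2cKO list held an H3K4me3 peak at chr17:34355293-34356370, 1078 bp wide with a score of 253.45, and the control list held none. In the Olig2cKO list 56.8% of peaks scored higher. Of the 2 Olig2cKO peaks of the window, 1 was Olig2cKO-only, against 21.4% of the whole Olig2cKO list and 13.2% (12.2 to 14.2) of the 4889 peaks of its score decile. The nearest control H3K4me3 peak lay 11804 bp below it. The weak peak at site 4 thus ran in the direction opposite to sites 1 and 2.

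Acetylation was listed in both genotypes at every site, including sites 1 and 2 where H3K4me3 was not listed in Olig2cKO tumours. Of the 4 Olig2cKO H3K27ac peaks 0 were Olig2cKO-only, against 30.9% of that list, and of the 4 control peaks 0 were control-only, against 17.9%. In the score deciles of the 4 Olig2cKO peaks, from site 1 to site 4, the Olig2cKO-only shares were 51.9%, 8.98%, 1.30% and 1.30%, and in those of the control peaks the control-only shares were 2.17%, 2.17%, 2.17% and 16.8%. The absence of genotype-only H3K27ac peaks here is therefore not set apart from other peaks of like score. The peaks were wider in Olig2cKO tumours at all 4 sites, by 5803, 3591, 167 and 3326 bp from site 1 to site 4. At site 1 the width was 7883 bp in Olig2cKO tumours (chr17:34322040-34329922) and 2080 bp in control tumours (chr17:34323532-34325611), a ratio of 3.79. Among 43120 H3K27ac pairs with 1 partner on each side the median ratio was 1.05, and 0.54% of pairs had a ratio as high as that of site 1.

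At site 2 the H3K27ac peak was 6243 bp wide in Olig2cKO tumours (chr17:34330493-34336735) and 2652 bp in control tumours (chr17:34333733-34336384), a ratio of 2.35 that 4.21% of pairs reached. At site 4 it was 4451 bp wide in Olig2cKO tumours (chr17:34351977-34356427) and 1125 bp in control tumours (chr17:34355257-34356381), a ratio of 3.96 that 0.438% of pairs reached. At site 3 it was 2449 bp wide in Olig2cKO tumours (chr17:34341460-34343908) and 2282 bp in control tumours (chr17:34341182-34343463), a ratio of 1.07 that 46.2% of pairs reached. Sites 1, 2 and 4 thus lay in the upper tail of width ratios and site 3 near the middle.

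**Figure D2:**
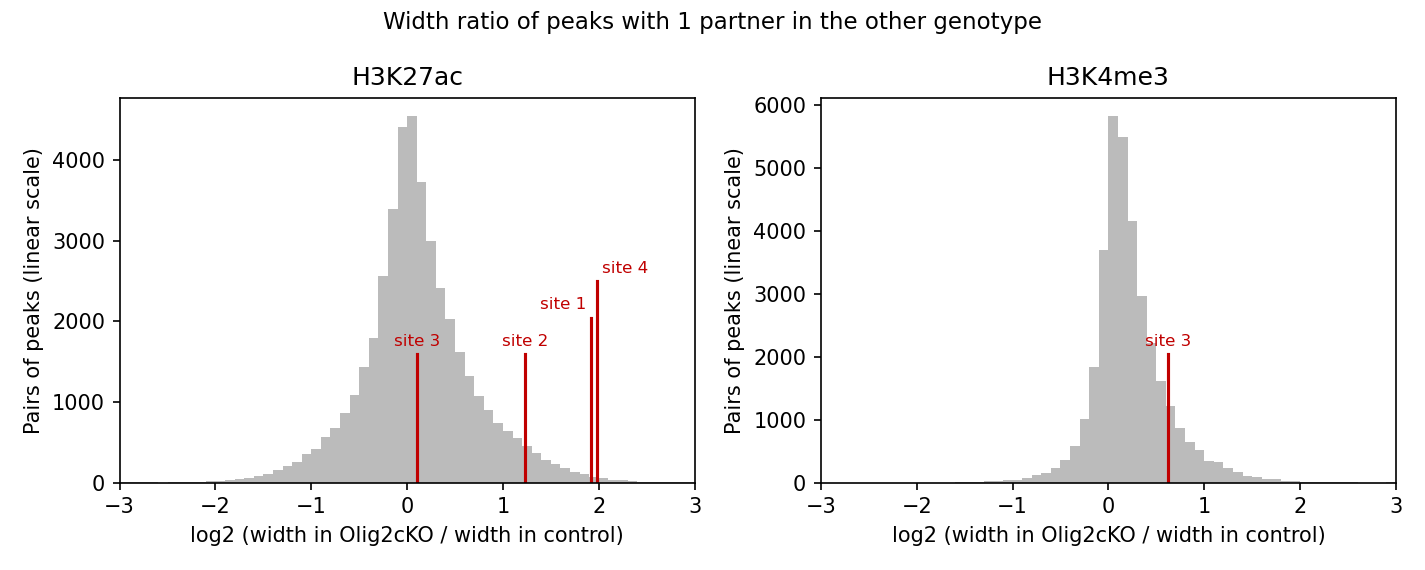
Number of peak pairs against the log2 ratio of the width in Olig2cKO to that in control tumours, for H3K27ac (left, 43120 pairs) and H3K4me3 (right, 35250 pairs), with the pairs of the window as red lines whose heights carry no value. Ratios beyond the axis are counted in the end bars. Sites 1, 2 and 4 lie far to the right for H3K27ac and site 3 near the centre.

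The added acetylated length was not placed evenly around the control peaks. At site 1 the Olig2cKO peak reached 1492 bp below and 4311 bp above the control peak. At site 2 it reached 3240 bp below and 351 bp above, and at site 4 it reached 3280 bp below and 46 bp above. The extensions of sites 1 and 2 ran towards each other, so that 570 bp lay between those peaks in Olig2cKO tumours and 8121 bp in control tumours. With peaks up to 1 kb apart joined, the Olig2cKO peaks of sites 1 and 2 formed a stretch of 14696 bp from chr17:34322040-34336735. Of 62725 such stretches in the Olig2cKO H3K27ac list, 2 were at least as wide, this one included. This is a description of a window picked with results known.

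Inside their own lists these acetylation peaks ranked differently. From site 1 to site 4, the scores were 91.0, 382.78, 1018.62 and 659.09 in the Olig2cKO list and 747.07, 688.94, 589.3 and 158.31 in the control list. The share of the Olig2cKO list that scored higher was 74.2%, 21.9%, 3.64% and 9.8%, and that of the control list 10.1%, 11.6%, 15.0% and 54.1%. The broadest Olig2cKO peak, at site 1, was thus the weakest of its 4, and the control order ran from site 1 downwards. Scores depend on width within a list. In the Olig2cKO H3K27ac list the median score was 152.76 for 60645 peaks under 3 kb, 364.8 for 7799 peaks of 3 to 6 kb and 170.18 for 921 peaks of 6 kb or more.

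The widths of acetylated peaks were set beside the H3K4me3 result over all strong peaks. Among control H3K4me3 peaks scoring at least 1000, 25 of 11217 (0.223%) were control-only, and the peaks at sites 1 and 2 were 2 of them. Where no Olig2cKO H3K27ac peak overlapped, 13 of 1424 (0.913%, 0.487 to 1.56) were control-only. Where any overlapped, 12 of 9793 (0.1225%, 0.0633 to 0.214) were, the 2 peaks of this window among them. Where the widest overlapping Olig2cKO H3K27ac peak was 5 kb or more, 6 of 321 (1.87%, 0.689 to 4.02) were control-only. Where it was under 5 kb, 6 of 9472 (0.0633%, 0.0232 to 0.138) were. With this window left out, the counts were 4 of 319 (1.25%, 0.343 to 3.18) and 6 of 9471 (0.0634%, 0.0233 to 0.138). The 5 kb limit was set after the values were seen, and H3K4me3 peaks that share an acetylated peak are not independent.

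The same count by the width of the control H3K27ac peak gave 5 of 321 control-only (1.56%, 0.508 to 3.60) at 5 kb or more and 14 of 9644 (0.145%, 0.0794 to 0.243) below. Both peaks of this window fall in the lower class there, at 2080 and 2652 bp. In the other direction all 15 Olig2cKO-only H3K4me3 peaks of that score were among the 1264 without a control H3K27ac peak. On control acetylation of 5 kb or more 0 of 279 were, and on narrower peaks 0 of 9505, so widths in control tumours could not be compared. By the width of the Olig2cKO H3K27ac peak, 1 of 274 (0.365%, 0.0092 to 2.02) was Olig2cKO-only at 5 kb or more. Below 5 kb it was 11 of 9683 (0.114%, 0.0567 to 0.203). The widest single peak of any list was 9285 bp, in the Olig2cKO H3K4me3 list. The single Olig2cKO H3K27ac peaks of sites 1 and 2 were 7883 and 6243 bp wide. They reached 14696 bp only when joined across the gap of 570 bp. The part of peak width in the missing H3K4me3 partners at sites 1 and 2 was not tested.

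**Figure D3:**
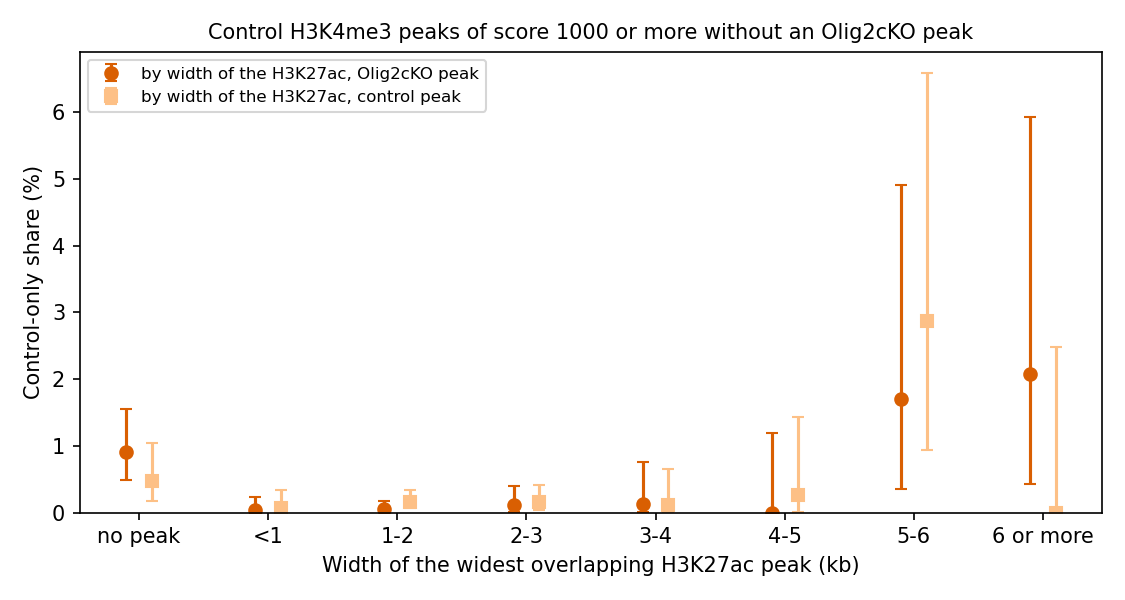
Share (%) of control H3K4me3 peaks scoring at least 1000 that have no Olig2cKO partner, by the width in kb of the widest H3K27ac peak they overlap, or with no such peak (left), with that width read in Olig2cKO (circles) or control tumours (squares). Bars are exact 95% binomial intervals. By the Olig2cKO width the share is 1.70% at 5 to 6 kb and 2.07% at 6 kb or more, at most 0.136% in the narrower classes, and 0.913% where no peak overlaps. The class of 6 kb or more has 3 of 145 control-only, and these include the peaks of sites 1 and 2. Those peaks were part of the choice of the window, so that share supports nothing. By the control width it is 2.87% at 5 to 6 kb, 0 of 147 at 6 kb or more, and 0.479% with no peak.

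Olig2 was listed at all 4 sites in control tumours. From site 1 to site 4 the Olig2 peaks were chr17:34323794-34324939 (score 184.69), chr17:34333763-34335523 (136.62), chr17:34340957-34341662 (75.2) and chr17:34355318-34356327 (178.53). The share of the Olig2 list that scored higher was 18.0%, 30.0%, 64.3% and 19.2%. The Olig2 peak at site 2 was 1761 bp wide, and 5.17% of the Olig2 list was wider. Site 3, where both marks were shared, thus had the weakest and narrowest Olig2 peak of the window, at 706 bp.

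All 4 Olig2 peaks overlapped H3K27ac of both genotypes, against 70.2% of all Olig2 peaks for the Olig2cKO list and 68.9% for the control list. Of the 4, 2 overlapped Olig2cKO H3K4me3 and 3 overlapped control H3K4me3, against 58.1% and 55.6% of all Olig2 peaks. At sites 1, 2 and 4 the Olig2 peak lay wholly inside the H3K27ac peak of each genotype. At site 3 it lay at the lower edge of the acetylation, with 28.8% of its length on the Olig2cKO H3K27ac peak and 68.1% on the control one. There it lay wholly on H3K4me3 in Olig2cKO tumours and for 93.8% of its length in control tumours. The pattern of sites 1 and 2, H3K27ac in both genotypes with H3K4me3 in control alone, was found at 1016 Olig2 peaks (2.59%), and that of site 4, with H3K4me3 in Olig2cKO alone, at 1452 (3.7%). Peaks of all 4 histone lists, as at site 3, were found at 16659 (42.5%). Olig2 was mapped only in control tumours, so no share at Olig2 sites measures an effect of its loss.

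Summed over the window, H3K27ac covered 21026 bp in Olig2cKO tumours and 8139 bp in control tumours, while H3K4me3 covered 4898 bp and 8683 bp. The mean width of the peaks was 5257 bp in Olig2cKO and 2035 bp in control tumours for H3K27ac, and 2449 bp and 2171 bp for H3K4me3. The genome was divided into windows of 50 kb in step with this one, and 34553 of them held a peak of any list. In 15 of these (0.0434%) the H3K27ac difference, Olig2cKO minus control, was at least as large as the 12887 bp found here. In 63 (0.182%) the H3K4me3 difference was as low as the -3785 bp found here or lower. The medians over windows were 302 and 203 bp. At least 1 kb more H3K27ac together with at least 1 kb less H3K4me3 in Olig2cKO tumours was seen in 138 windows (0.399%), and at least 1 kb more of both in 2920 (8.45%). The H3K4me3 difference was part of the choice of this window. The edges of the grid were set by this window and may cut acetylated stretches elsewhere. Nothing is therefore read from these shares, that of the H3K27ac difference included.

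In the windows on either side, peaks of both marks covered more length in Olig2cKO tumours. In the 50 kb below, H3K27ac covered 5615 bp in Olig2cKO and 3527 bp in control tumours, and H3K4me3 covered 9404 bp and 3750 bp. A control H3K27ac peak there, chr17:34256405-34261552 (score 1619.79), crossed the lower edge, and only its part inside was counted. In the 50 kb above, H3K27ac covered 9443 bp in Olig2cKO and 1379 bp in control tumours, and H3K4me3 covered 5941 bp and 2365 bp. In the locus the covered length of H3K4me3 was lower in Olig2cKO tumours, while that of H3K27ac was higher, as on either side. H3K4me3 was part of the choice of the locus, so its contrast with the neighbours supports nothing. Over the 3 windows 6 of 13 H3K27ac peaks were Olig2cKO-only, against 30.9% of that list, and 1 of 9 was control-only, against 17.9%. None of these lay in the locus. Peaks just beyond the edges included Olig2cKO-only H3K27ac at chr17:34360993-34362215 (score 891.83), 992 bp above the window, and at chr17:34307863-34308431 (65.89), 1568 bp below it. The nearest H3K4me3 peaks outside the window lay 18517 bp below and 34368 bp above it in Olig2cKO tumours, and 36521 bp below and 34514 bp above it in control tumours.

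**Figure D4:**
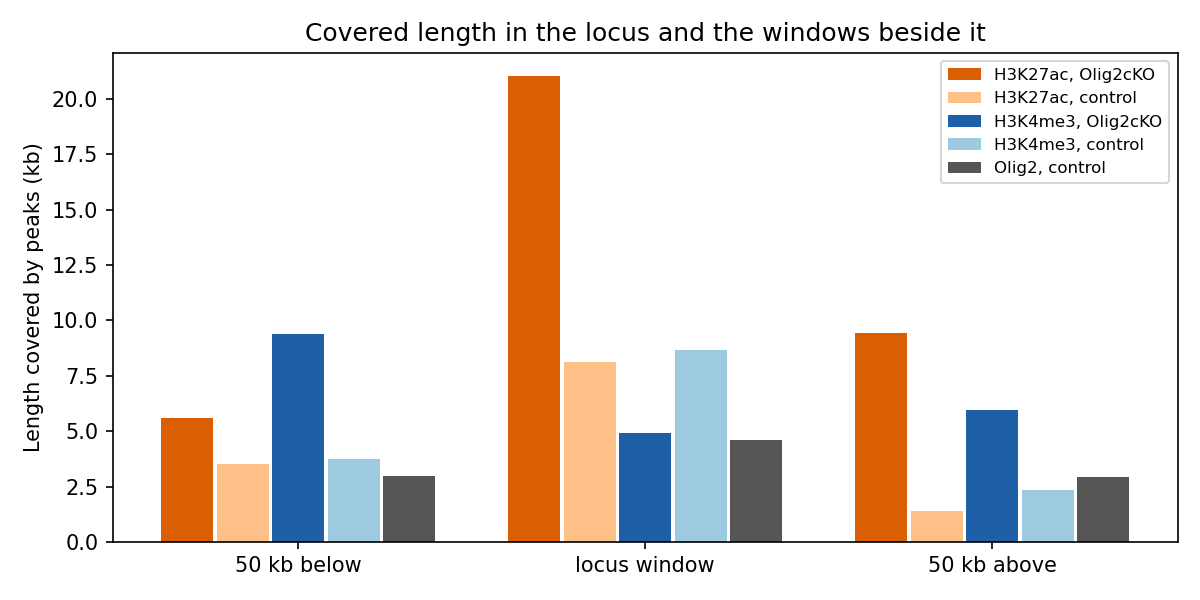
Length in kb covered by the peaks of each list in the locus window and in the windows of 50 kb on either side. The length covered by H3K27ac peaks is larger in Olig2cKO tumours in all 3 windows. That covered by H3K4me3 peaks is larger in Olig2cKO tumours on either side and smaller in the locus (4898 bp against 8683 bp).

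Windows of the same kind were few. Windows of 50 kb with 2 or more control-only H3K4me3 peaks from the upper 50% of the control list numbered 10, and 108 windows held at least 1. Ranked by the score of the second peak this locus came first, at 2083.55, and the next window, chr19:29410000-29460000, had 690.3, followed by chr17:6260000-6310000 with 604.71. The locus was chosen for these peaks, so its place among such windows is described and supports nothing. Both leading control-only H3K4me3 peaks carried Olig2cKO H3K27ac in this locus and in 1 of the 9 other windows, while 1 of the 2 did in 5 windows and neither did in 3. In the reverse direction 6 windows held 2 or more Olig2cKO-only peaks from the upper 50% of the Olig2cKO list, and 431 held at least 1. By the score of the best peak, chr10:99060000-99110000 (2124.05) and chr6:63660000-63710000 (1382.61) led those 6. By the score of the second peak, the window that borders the locus on its lower side came first. Its 2 Olig2cKO-only H3K4me3 peaks, chr17:34282049-34284362 (score 873.09) and chr17:34289740-34291482 (821.71), both carried H3K27ac in Olig2cKO tumours and neither did in control tumours. In the RefSeq order H2-DMb1 is the neighbour of Psmb9 on the lower side, and no peak was assigned to it.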

How the data were processed

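Each deposited list holds the peaks of 1 ChIP-seq library with a position and a score. CASAVA, Bowtie2 and MACS are named for build mm9, per the submitters' processing notes, with no versions or settings. The deposited score starts at 50 in each list, where −10 times the base 10 logarithm of p stands at 1e-05. Use of an input library and the depths are not given in the sources used here. Starts were raised by 1 bp so that positions count from 1. A peak without a partner overlapping by at least 1 bp in the other genotype is called genotype-only, which means not listed, not absent. The overlap search, written for Python 3.11.15 (pandas 2.3.3, numpy 2.4.6), was tested on simulated data. Intervals are exact (Clopper-Pearson) at 95%, from scipy 1.17.1, and figures used matplotlib 3.10.9. The peaks named are all those of the window, the nearest outside it and the windows ranked most like it. The members, lists and limits were chosen with earlier results of these data known. Promoter sequences are RefSeq's, on GRCm38.p6. Cell type markers and other pathway genes were not placed, for want of gene positions on mm9. An allele shared by both genotypes and 1 motif are not reported here.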

Additional observations from a re-analysis of the deposited data

How the results depend on the processing

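No paired analysis was possible because each group had 1 library and no test was made. The 18 counts and covered lengths of the window were recomputed under 8 other settings, and 109 of 124 values stayed within 1.5 times the value reported. No value changed with membership by the middle of a peak, with partners allowed at a distance of 1 kb, or with genotype lists of equal length. With neighbours in a list merged across 1 kb, control-only H3K4me3 peaks numbered 2, Olig2cKO H3K27ac peaks with a partner 3, and the covered lengths were 21596 bp for Olig2cKO H3K27ac and 8703 bp for control H3K4me3. With 50% overlap required of the shorter peak, 3 Olig2 peaks overlapped Olig2cKO H3K27ac. With the upper 50% of each list by score, Olig2cKO-only H3K4me3 peaks numbered 0. H3K27ac peaks with a partner numbered 2 in Olig2cKO and 2 in control tumours, with 1 Olig2cKO-only and 1 control-only peak. Of the Olig2 peaks kept, 2 overlapped Olig2cKO H3K27ac, 2 control H3K27ac and 0 Olig2cKO H3K4me3, and Olig2cKO H3K27ac covered 13143 bp. Fewer peaks enter under that setting, by construction. With the upper 50% of each list against the whole other list, Olig2cKO-only H3K4me3 peaks numbered 0, and 1 Olig2 peak overlapped Olig2cKO H3K4me3. Widening the window by 25 kb on each side gave 2 Olig2cKO-only H3K4me3 peaks, 4 Olig2cKO-only H3K27ac peaks, and 8 Olig2 peaks over 7488 bp. The depth of each library is unknown, so a peak missing from a list may lie below its threshold.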
